A study of Mus musculus with 6 samples.

Results

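The genes described here encode subunits of the mitochondrial respiratory chain and of ATP synthase, and cytochrome c. They were found by symbol in the platform annotation (Nduf, Sdh, Uqcr, Cyc1, Cycs, Cox4 to Cox8 and Atp5 names), without Cox7a1 and Cox8b, and no measured value chose them. The rule gave 81 genes of the 18193 that the platform reads with a probe set of their own. Of these, 33 belong to complex I, 4 to complex II, 9 to complex III, 15 to complex IV and 17 to ATP synthase, 1 is cytochrome c, and Ndufa4 and Ndufa4l2 were kept apart because Ndufa4 was first counted in complex I and is now placed with complex IV. Another 7 symbols matched the rule but shared their probe sets with other genes and were not read. A probe set is a group of short probes that reports 1 transcript, and of several for a gene the brightest on average was used.

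RNA came from the epididymal fat pad, a visceral white fat depot, of male C57BL/6 mice aged 16 weeks, fed chow and killed in the fed state. AFO mice (Adiponectin-cre FTO flox/flox) carried a Cre recombinase under adiponectin control, which acts in fat cells, with both copies of Fto floxed. Control mice (FTO flox/flox) carried the same floxed Fto without the Cre, so the floxed allele was shared by both genotypes. Each genotype had 3 Affymetrix arrays of a 3′ expression type, each hybridised with an independent RNA pool. The size of a pool is not given in the sources used here. The p-values measure the spread between pools. The values are log2 levels, and the array medians ran from 5.35 to 5.43. With 3 arrays a genotype, precision is limited.

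The respiratory chain moves electrons from NADH (complex I) and succinate (complex II) through ubiquinone, complex III and the mobile carrier cytochrome c to oxygen at complex IV. Complexes I, III and IV pump protons across the inner mitochondrial membrane, and ATP synthase, also called complex V, lets them flow back and makes ATP. All genes here are nuclear, while further core subunits come from mitochondrial DNA. In white fat the chain oxidises fuel for the fat cell's own needs, and several subunits of complex IV have isoforms made mainly in heart and skeletal muscle, in testis or under low oxygen.

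Tissue identity and quality were read from marker genes. Adipoq, which encodes adiponectin, read 13.14 to 13.42 in AFO fat and 13.30 to 13.43 in control fat. All 8 tested adipocyte markers, of 10 listed, were lower in AFO fat, with a median difference (AFO minus control, in log2 units) of -0.21, and 0 were called. Fto itself read 6.13, 5.45 and 5.95 in AFO pools 1, 2 and 3 and 6.11, 6.20 and 5.59 in the control pools, and since the labels do not place the floxed part against its probes, these values check nothing. Skeletal muscle markers varied most: the summed log2 level of 13 tested markers, of 14 listed, ran from 64.3 to 153.7 in AFO fat and from 63.2 to 122.8 in control fat. Myh4, a fast muscle myosin, read 9.84, 12.31 and 3.44 in AFO pools 1, 2 and 3 and 3.48, 10.28 and 3.13 in the control pools. Both pool 2 arrays stood apart from the other 4 by B cell, T cell, neutrophil and mesothelial markers. AFO pool 1 stood apart by epididymal duct markers. By muscle markers AFO pool 1 lay beside control pool 2, with summed levels of 124.4 and 122.8. In the gaps given next it counts among the other 4. The median gap of the pool 2 arrays was 4.59 over the muscle markers, 2.64 over 7 brown or beige fat markers of 8, 3.75 over 4 B cell markers of 7, 3.10 over 5 T cell markers of 6, 2.21 over 5 neutrophil markers of 7 and -3.51 over 6 mesothelial markers of 6. Some of these markers, among them Myh1, Ucp1, Pax5, Cd3g and Cd5, passed the filter on low values (a mean of at least 4.88) only through the pool 2 arrays. The gaps of their lists were thus fixed in part by the filter. Of 10 epididymal markers 3 were tested, and all 3 were highest in AFO pool 1. One of them, Lcn8, an epididymal lipocalin, read 8.72, 4.73 and 4.54 in AFO pools 1, 2 and 3 and 4.72, 4.92 and 4.44 in the control pools. Lcn8 and Adam7 passed the filter only through AFO pool 1, so their peak there was fixed in part by the filter. Lcn9 read 8.65 in AFO pool 1 and 5.65 to 6.03 in the other arrays, above the filter in each. The gap between the 3′ and 5′ probe sets of actin, a sign of shortened RNA, was 0.82, 0.73 and 1.33 in the AFO pools and 0.84, 0.95 and 0.87 in the control pools, so AFO pool 3 had the highest. In bulk tissue, fewer cells of a type and less RNA per cell cannot be told apart.

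As a set, the subunit genes had nearly the same levels in AFO as in control fat. Of the 81 genes, 78 passed a filter on low values (a mean level of at least 4.88, the 40th percentile), and these are the tested ones. Of the 78, 37 were higher and 41 lower in AFO fat, with a median difference (AFO minus control) of -0.0044, beside 45.7% higher and a median of -0.014 over all 13453 tested genes. The sign of so small a median depended on the scaling, with 0.014 after quantile normalisation and 0.0036 after median centring. Signs of single genes depended on the probe set too. Of 45 members with several probe sets above the filter, 19 had the same sign by all of them. The median gap between probe sets of a gene was 0.11, so counts of higher and lower genes are loose. None of the 78 was called by limma at an adjusted p under 0.05, and 0% of all tested genes were (0 of 13453). At an unadjusted p under 0.05 there were 0 members, against 139 genes or 1.03% of all. With the pool number as a block there were again 0 members called, against 2 genes or 0.0149%, and 0 members at an unadjusted p under 0.05, against 4.32%.

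The size of a difference that these arrays leave room for can be read from the intervals. In 77 of the 78 genes the difference was smaller than 0.2 log2 units in either direction. The standard errors and intervals here are those of the unpaired fit. The standard error had a median of 0.16 over the genes and ran from 0.10 (Ndufa2) to 1.03 (Cox6a2). With the pool number as a block it was smaller for these genes, 0.087 for Ndufa2 and 0.53 for Cox6a2. The 95% interval lay within 1 log2 unit of 0 on both sides in 77 genes, and within 0.5 in 55 genes. The exception in each case where 77 genes are counted was Cox6a2, the muscle isoform described further on. The 3 genes below the filter were Ndufb4, read only by a dim probe set, Cox4i2 and Cox7b2. Their differences were -0.20, -0.088 and 0.048, and none was tested.

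**Figure D1:**
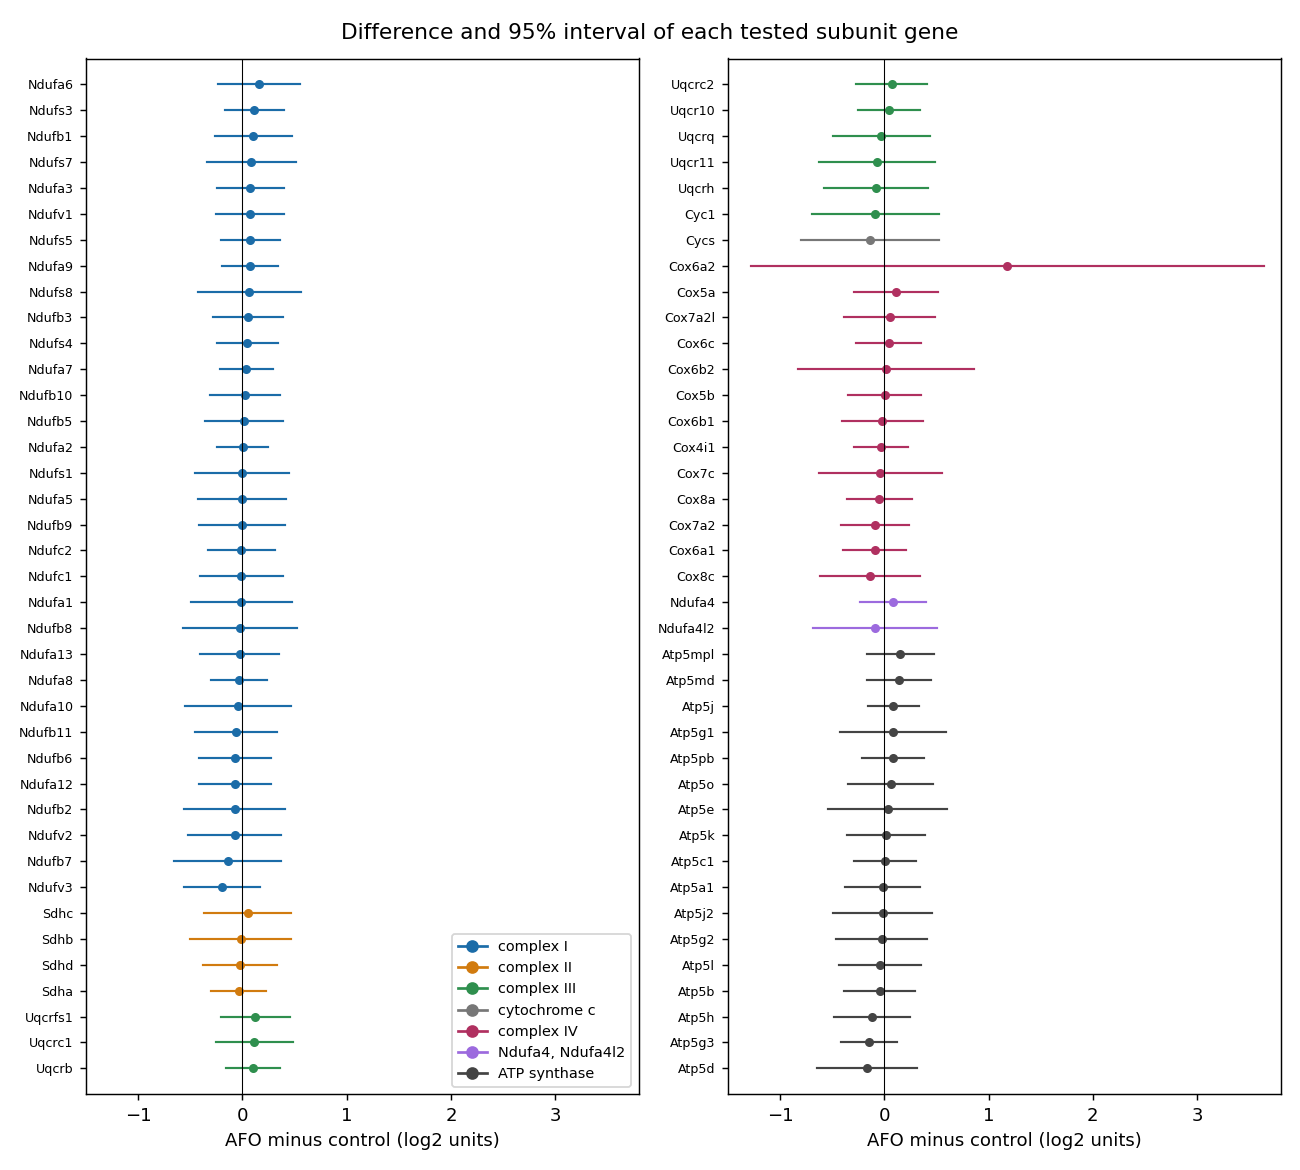
Difference in log2 level (x axis, AFO minus control) of each of the 78 tested subunit genes (y axis), coloured by complex, with points for the difference of means of 3 against 3 arrays and lines for the 95% interval. All intervals cross 0, and Cox6a2, at 1.18, has the widest.

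Complex I takes electrons from NADH through a flavin and a chain of iron-sulphur clusters. Its 32 tested genes had a median difference of -0.0025, with 15 higher, and ran from -0.19 to 0.16. Of the core subunits, which carry the cofactors, 6 were tested, with 4 higher and a median of 0.070. Ndufs1, the largest core subunit, read 9.43, 9.70 and 9.16 in the AFO pools and 9.21, 9.63 and 9.46 in the control pools. The groups overlapped, with a difference of -0.0005 (SE 0.19). Ndufv1, which binds NADH and the flavin, read 9.92, 10.20 and 9.91 in AFO fat and 9.95, 10.03 and 9.83 in control fat, a difference of 0.073 (SE 0.13). Ndufs3, a core subunit of the arm that faces the matrix, read 10.30, 10.25 and 10.08 in AFO pools 1, 2 and 3 and 10.12, 10.15 and 10.02 in the control pools. Each AFO pool was above the control pool of the same number, by 0.18, 0.10 and 0.054, while the groups overlapped and the difference of 0.11 (SE 0.12) was not called.

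The 26 tested accessory subunits of complex I, which stabilise the enzyme, had 11 higher and a median of -0.0071. Ndufv3 had the lowest difference among all tested members at -0.19 (SE 0.15, 95% interval -0.56 to 0.17). It read 10.74, 10.59 and 10.27 in AFO fat and 10.78, 10.78 and 10.63 in control fat. AFO pools 2 and 3 lay below all control values, and AFO pool 1 lay among them. Ndufa6 had the highest difference in complex I, 0.16 (SE 0.16), with 10.53, 10.42 and 10.79 in AFO fat and 10.18, 10.58 and 10.52 in control fat. Ndufa2 was the steadiest member, with an SD over the 6 arrays of 0.031. It read 10.58, 10.63 and 10.60 in AFO fat and 10.58, 10.65 and 10.58 in control fat, and its 95% interval ran from -0.24 to 0.25.

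Ndufa4 and its paralogue Ndufa4l2, a gene known to be induced by low oxygen, were read apart. Ndufa4 read 10.61, 10.44 and 10.30 in AFO fat and 10.47, 10.32 and 10.31 in control fat, a difference of 0.084 (SE 0.13). Ndufa4l2 read 6.92, 6.37 and 7.05 in AFO fat and 7.03, 6.50 and 7.09 in control fat, a difference of -0.091 (SE 0.25). Both pool 2 arrays were the lowest for Ndufa4l2, by 0.59 on average against the other 4 arrays, which is the opposite of most members.

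Complex II is also the succinate dehydrogenase of the TCA cycle and its 4 subunits are all nuclear. By the probe sets used, the 4 differences ran from -0.038 to 0.050, with 1 higher. Other probe sets above the filter differed by 0.24 for Sdhd, by -0.12 for Sdhc and by -0.066 and -0.15 for Sdha. The signs for Sdhc and Sdhd thus depend on the probe set. Sdha, the flavoprotein that oxidises succinate, read 11.05, 11.12 and 10.96 in AFO fat and 11.02, 11.17 and 11.05 in control fat, a difference of -0.038 (SE 0.11). Sdhb, the iron-sulphur subunit, read 10.34, 10.84 and 10.16 in AFO fat and 10.33, 10.65 and 10.42 in control fat, a difference of -0.018 (SE 0.20). For Sdhb the AFO pools spread more widely, with an SD of 0.36 against 0.16 in the control pools. The membrane anchors Sdhc and Sdhd differed by 0.050 (SE 0.17) and -0.025 (SE 0.15).

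Complex III passes electrons from ubiquinol to cytochrome c. Of its 9 tested genes 5 were higher, with a median of 0.045 and a range from -0.088 to 0.12. Uqcrfs1, the Rieske iron-sulphur protein, read 10.97, 11.07 and 11.03 in AFO fat and 10.76, 11.14 and 10.80 in control fat. Its 3 AFO values lay within 0.10 of each other and inside the control range, with a difference of 0.12 (SE 0.14). Uqcrc1, a core protein, differed by 0.12 (SE 0.15) and Uqcrb, a small subunit near the quinone site, by 0.10 (SE 0.11). Uqcrb read 12.63, 12.42 and 12.61 in AFO fat and 12.50, 12.42 and 12.45 in control fat, and it was higher within each of the 3 pool numbers.

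Cyc1, the haem-bearing cytochrome c1 of complex III, and Cycs, the cytochrome c that it reduces, had the same pool at the top and the same array at the bottom. Cyc1 read 10.26, 10.84 and 9.96 in AFO fat and 10.22, 10.73 and 10.37 in control fat. Cycs read 11.38, 11.70 and 10.78 in AFO fat and 11.10, 11.77 and 11.40 in control fat. For both genes the pool 2 arrays held the highest values and AFO pool 3 the lowest, and the groups overlapped. The differences were -0.088 (SE 0.25) for Cyc1 and -0.14 (SE 0.28) for Cycs. Cycs had the third highest SD over the 6 arrays, 0.37, after Cox6a2 and Cox6b2. The other Cycs probe sets above the filter differed by 0.037 and 0.0022, so the sign for Cycs depends on the probe set.

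The promoters of nuclear subunit genes are known to hold sites for NRF1, for the ETS factor GABPA, for YY1 and for CREB, which couple them to mitochondrial biogenesis. RefSeq promoter windows (mouse build GRCm38.p6, from 250 bases before to 50 after the start site) were matched for 65 of the 81 genes. Searched on both strands, the NRF1 core (GCGC, any 2 bases, GCGC) was in 24.6% of the matched genes, against 7.0% of 27025 genes with a window. The ETS core CCGGAAG was in 26.2% against 9.93%, the YY1 core AAGATGGC in 13.8% against 3.19% and the cyclic AMP response element TGACGTCA in 6.15% against 2.03%. The SP1 box GGGCGG was in 44.6% against 38.2% and TATAAA in 10.8% against 15.7%. These 6 spellings were picked after sequences had been looked at and other spellings had been tried, so the shares are descriptions, and a match is a run of letters, not a bound site. Shown are Cycs, which had the highest SD over the arrays after Cox6a2 and Cox6b2, Cox6a1, the common partner of Cox6a2, and Atp5g3, the only member whose AFO values all lay below the control values, each 5′ to 3′ with the first 4 motifs in capitals. Cycs lies on the minus strand at chr6:50566520-50566819 and holds the cyclic AMP response element. Cox6a1 lies on the minus strand at chr5:115348909-115349208 and holds the NRF1 core at 2 places and the ETS core on the opposite strand. Atp5g3 lies on the minus strand at chr2:73911277-73911576 and holds the NRF1 core just past the start site.
Cycs: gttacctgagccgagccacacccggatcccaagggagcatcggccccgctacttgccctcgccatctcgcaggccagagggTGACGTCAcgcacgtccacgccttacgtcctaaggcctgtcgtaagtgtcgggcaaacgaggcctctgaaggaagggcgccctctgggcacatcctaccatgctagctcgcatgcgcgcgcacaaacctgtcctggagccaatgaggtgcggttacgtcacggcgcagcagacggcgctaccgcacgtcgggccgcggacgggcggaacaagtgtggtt
Cox6a1: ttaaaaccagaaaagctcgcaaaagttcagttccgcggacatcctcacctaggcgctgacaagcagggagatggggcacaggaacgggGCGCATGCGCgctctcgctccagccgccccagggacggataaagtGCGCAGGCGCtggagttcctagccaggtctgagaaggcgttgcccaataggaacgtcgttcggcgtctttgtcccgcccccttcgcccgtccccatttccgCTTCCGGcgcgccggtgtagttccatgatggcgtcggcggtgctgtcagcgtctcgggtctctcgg
Atp5g3: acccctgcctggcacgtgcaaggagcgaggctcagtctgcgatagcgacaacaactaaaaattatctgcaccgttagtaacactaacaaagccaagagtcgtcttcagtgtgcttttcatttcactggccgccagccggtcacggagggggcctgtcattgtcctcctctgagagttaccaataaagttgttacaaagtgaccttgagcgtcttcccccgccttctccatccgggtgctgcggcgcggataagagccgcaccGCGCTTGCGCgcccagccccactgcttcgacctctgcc

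Complex IV, cytochrome c oxidase, reduces oxygen. Its 13 tested genes had 6 higher, a median of -0.021 and a range from -0.14 to 1.18, or to 0.12 without Cox6a2. Cox4i1, the regulatory subunit found in most tissues, read 12.13, 12.11 and 12.03 in AFO fat and 12.12, 12.22 and 12.02 in control fat, a difference of -0.029 (SE 0.11), and it was the steadiest of the complex. Cox5a read 11.23, 11.69 and 11.43 in AFO fat and 11.20, 11.56 and 11.25 in control fat, higher within each of the 3 pool numbers, with a difference of 0.12 (SE 0.17). Cox5b differed by 0.0026 (SE 0.15), Cox6b1 by -0.021 (SE 0.16) and Cox7a2 by -0.090 (SE 0.14). Cox7a2l, which helps join complexes III and IV into supercomplexes, differed by 0.049 (SE 0.18), and Cox8a by -0.048 (SE 0.13).

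Cox6a2, the subunit VIa isoform of heart and skeletal muscle, was the one member far from the rest. It read 6.71, 9.23 and 4.95 in AFO pools 1, 2 and 3 and 5.43, 6.56 and 5.37 in the control pools. AFO pools 1 and 2 were above every control pool, and AFO pool 3 was below all of them. Its mean was 6.96 ± 2.15 in AFO fat and 5.79 ± 0.67 in control fat (SD, n = 3 each), which gave 1.18 (SE 1.03), a 95% interval from -1.28 to 3.64 and a limma adjusted p of 0.999999. Its second probe set, below the filter, read 5.08, 7.31 and 4.31 in AFO fat and 4.06, 4.84 and 3.31 in control fat. Cox6a1, the common isoform, read 12.93, 12.72 and 12.63 in AFO fat and 12.96, 12.85 and 12.76 in control fat, a difference of -0.093 (SE 0.12).

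Skeletal muscle genes were high in the arrays where Cox6a2 was high, and their part in it was not tested. Ckm, the muscle creatine kinase, read 9.56, 11.96 and 5.71 in AFO pools 1, 2 and 3 and 5.45, 9.38 and 5.12 in the control pools. As for Cox6a2, the highest array was AFO pool 2. The brown fat gene Ucp1 also peaked in AFO pool 2, at 9.22, and read 4.41 in AFO pool 1. All 13 tested muscle markers were higher in AFO fat on average, with a median of 2.43, and within pools 1, 2 and 3 their medians were 4.40, 2.47 and -0.11. Within the same pools Cox6a2 differed by 1.28, 2.67 and -0.42. Cox7a1 and Cox8b, isoforms of muscle and brown fat that the rule leaves out, also peaked in AFO pool 2, at 9.31 and 10.30, and differed by 1.80 (SE 1.09) and 1.05 (SE 1.08).

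**Figure D2:**
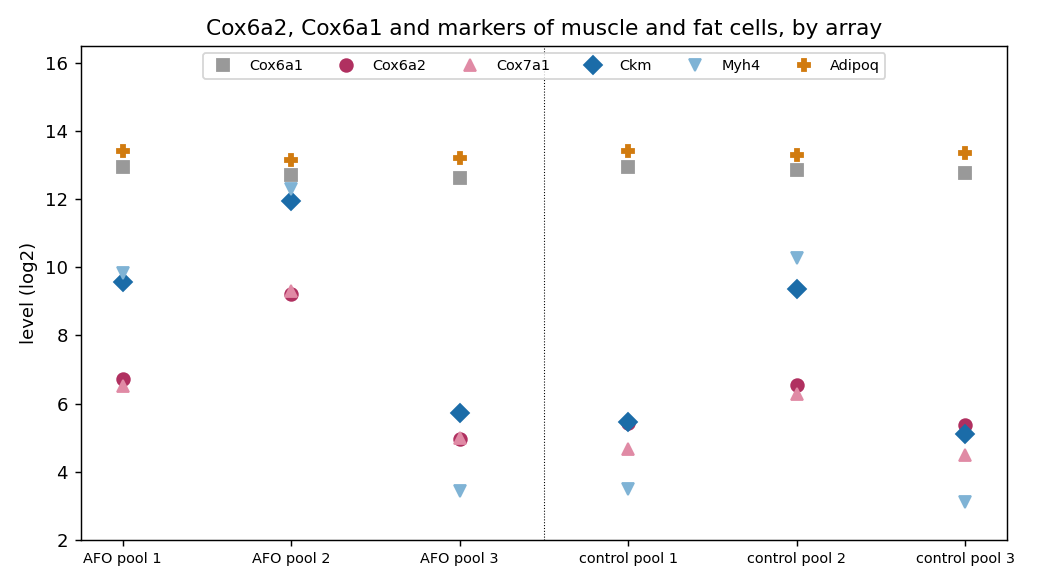
Log2 level (y axis) of Cox6a2 and its common isoform Cox6a1, of Cox7a1, of the muscle genes Ckm and Myh4 and of the fat cell gene Adipoq on each of the 6 arrays (x axis, AFO left of control). Cox6a2 peaks at 9.23 in AFO pool 2, where Ckm reads 11.96, while Cox6a1 stays between 12.63 and 12.96.

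The other tissue isoforms had other orders of arrays. Cox6b2, the testis isoform of subunit VIb, read 6.11, 5.01 and 6.30 in AFO fat and 5.83, 5.52 and 6.02 in control fat, a difference of 0.018 (SE 0.35). Both pool 2 arrays were its lowest, by 0.80 on average against the other 4. Cox8c, a testis isoform of subunit VIII, read 7.18, 7.42 and 6.91 in AFO fat and 7.38, 7.53 and 7.01 in control fat. It was lower within each of the 3 pool numbers, with overlapping groups and a difference of -0.14 (SE 0.20). Cox4i2, the isoform of lung, read 4.91, 4.91 and 4.43 in AFO fat and 4.76, 5.02 and 4.73 in control fat, below the filter on average.

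ATP synthase had 17 tested genes, 9 of them higher, with a median of 0.0085 and a range from -0.17 to 0.15. In the catalytic F1 head and its central stalk, 2 of 5 were higher. Atp5a1, the alpha subunit, read 11.44, 11.60 and 11.17 in AFO fat and 11.29, 11.55 and 11.41 in control fat, a difference of -0.015 (SE 0.15). Atp5b, the catalytic beta subunit, read 12.36, 12.21 and 12.02 in AFO fat and 12.40, 12.25 and 12.08 in control fat, a difference of -0.046 (SE 0.14). Atp5b was lower within pools 1, 2 and 3 by nearly the same amount, with differences of -0.043, -0.039 and -0.057. Of the 4 tested peripheral stalk genes 3 were higher, with a median of 0.070.

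The 3 genes of the proton-carrying c ring, Atp5g1, Atp5g2 and Atp5g3, encode the same mature protein and differ in their import sequences. Atp5g3 read 12.16, 12.15 and 11.96 in AFO fat and 12.18, 12.31 and 12.23 in control fat. All AFO values lay below all control values, by a gap of 0.017, with a difference of -0.15 (SE 0.11, 95% interval -0.41 to 0.12) and the smallest unadjusted p of all members in limma, 0.235. Atp5g1 read 8.41, 8.73 and 7.98 in AFO fat and 8.25, 8.18 and 8.44 in control fat, with AFO pools on both sides of the control range, and differed by 0.083 (SE 0.21). Atp5g2 read 10.08, 10.22 and 9.60 in AFO fat and 9.95, 10.04 and 9.98 in control fat, a difference of -0.027 (SE 0.18). For Atp5g2 the SD was 0.33 in AFO fat and 0.048 in control fat.

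Atp5j, coupling factor 6 of the peripheral stalk, was the only member with all AFO values above all control values. It read 10.69, 10.65 and 10.63 in AFO fat and 10.51, 10.60 and 10.60 in control fat, a difference of 0.086 (SE 0.10), and it was the steadiest ATP synthase gene. Over all tested genes 2.03% lay wholly above and 1.47% wholly below the control values, so 1 member of 78 in each direction lies near this background. The small membrane subunits Atp5md and Atp5mpl had the highest differences of the enzyme, 0.14 (SE 0.13) and 0.15 (SE 0.13). Atp5mpl read 10.62, 10.88 and 10.87 in AFO fat and 10.58, 10.79 and 10.54 in control fat, higher within each pool number.

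The members differed between arrays, and most complexes had the same arrays at the top and bottom. Each gene's deviation from its own mean over the 6 arrays was taken, and the median over the 78 genes was 0.022, 0.18 and -0.17 in AFO pools 1, 2 and 3 and -0.077, 0.13 and -0.039 in the control pools. The pool 2 arrays were thus the highest of both genotypes and AFO pool 3 the lowest of all. In AFO pool 2 the medians of complexes I to V were 0.18, 0.13, 0.24, 0.18 and 0.19, and in AFO pool 3 they were -0.15, -0.21, -0.16, -0.090 and -0.22. In control pool 2 they were 0.12, 0.14, 0.18, 0.12 and 0.14. Over all tested genes the array medians stayed between -0.062 and 0.048.

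Counted by gene, 67 of the 78 members (85.9%) had a higher mean in the 2 pool 2 arrays than in the other 4, against 40.6% of all tested genes. All 17 ATP synthase genes and all 4 complex II genes did, as did 27 of 32 in complex I, 8 of 9 in complex III and 10 of 13 in complex IV. The median gap over the members was 0.23 log2 units. AFO pool 3 was the lowest array for 45 of the 78 (57.7%), against 19.4% of all tested genes. The study defines no group by pool number, and these are descriptions with no test. Skeletal muscle, lymphocyte and brown or beige fat markers were high in the same pool 2 arrays. All 7 tested brown or beige fat markers had a higher mean there, and their summed log2 level ran from 39.3 to 58.3 in AFO fat and from 36.1 to 51.7 in control fat. Ucp1, the uncoupling protein of brown fat, read 4.41, 9.22 and 4.41 in AFO pools 1, 2 and 3 and 4.54, 5.79 and 4.19 in the control pools. It passed the filter only through the pool 2 arrays. Cidea, a lipid droplet protein of brown fat, read 7.31, 10.63 and 5.13 in AFO fat and 5.45, 10.36 and 4.46 in control fat. Others on the list had other orders. Prdm16 read 5.78 in AFO pool 2, its lowest array, and 6.38 in control pool 2, its highest. Ppargc1a was highest in AFO pool 3 at 6.32, against 5.86 in AFO pool 2 and 5.98 in control pool 2. The sum also holds Cox7a1 and Cox8b, which are isoforms of muscle too. In AFO pool 1, where the members' median deviation was 0.022, that of the muscle markers was 1.84. The part of other cell types was not tested.

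**Figure D3:**
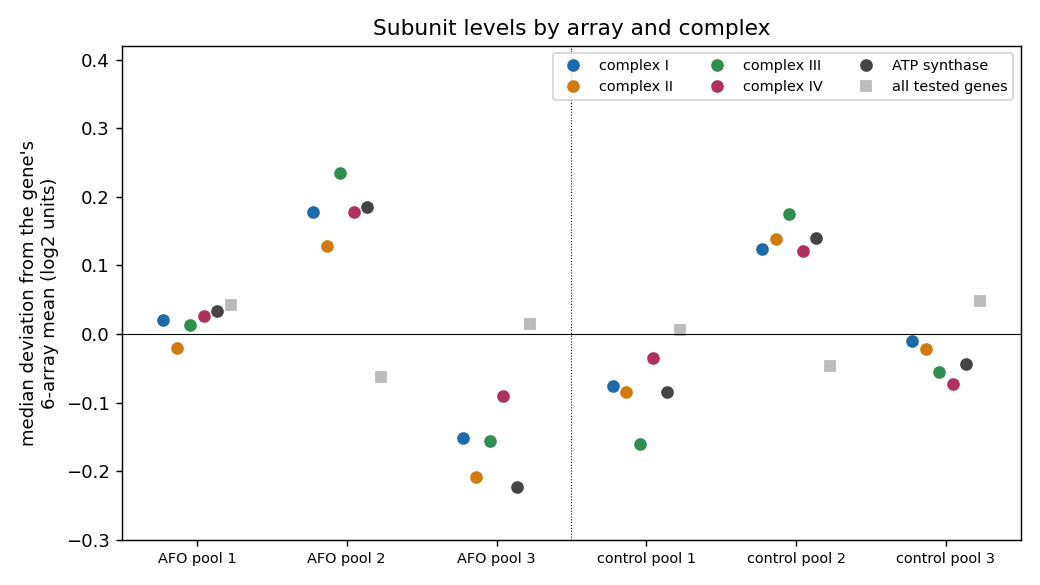
Median deviation (y axis, log2 units) of the tested genes of each complex from their own 6-array means, for each array (x axis, AFO left of control), with all 13453 tested genes as grey squares. All complexes are highest in the pool 2 arrays and lowest in AFO pool 3, except complex III, whose lowest arrays, control pool 1 and AFO pool 3, are level at -0.16.

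Within equal pool numbers the sign of the genotype difference was not the same. In pool 1, 61 of 78 members were higher in AFO fat, with a median of 0.083. The 3 epididymal markers were higher there by a median of 3.34, though Lcn8 and Adam7 passed the filter only through AFO pool 1. The muscle markers were higher there by a median of 4.40, and the part of either list was not tested. In pool 2, 48 were higher, with a median of 0.044. In pool 3, 23 were higher, with a median of -0.13. The shares of all tested genes that were higher were 55.7%, 45.2% and 44.7%, with medians of 0.025, -0.023 and -0.038. All 9 complex III genes and all 4 complex II genes were higher in pool 1, and all 4 complex II genes were lower in pool 3. Over the 3 pools, 7 members were higher in every pool (Ndufb3, Ndufs3, Uqcrb, Cox5a, Cox6c, Atp5j and Atp5mpl) and 8 were lower in every pool (Ndufa12, Ndufv3, Cox6a1, Cox8c, Ndufa4l2, Atp5b, Atp5g3 and Atp5h). Of all tested genes 10.5% were higher and 12.8% lower in every pool, so neither count exceeds this background.

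The differences within pool 3 were uneven across genes. Cycs differed there by -0.61, Ndufv2, a core subunit of complex I, by -0.52, Ndufb7 by -0.51 and Atp5d, the delta subunit of the central stalk, by -0.47. Atp5mpl differed by 0.33, Cox6b2 by 0.28 and Ndufa6 by 0.27. Ndufv2, Ndufb7 and Atp5d were picked for these values. Each of these values rests on 1 probe set, and Atp5mpl, Cox6b2 and Ndufa6 have no other. For Ndufv2, Ndufb7 and Cycs, other probe sets gave smaller differences between AFO and control pool 3, or the opposite sign. For Ndufv2 another read 10.34 and 9.89 in AFO and control pool 3, the opposite sign, and a further one 9.37 and 9.41. Ndufb7 read 8.80 and 8.82 by its other probe set. Atp5d read 9.35 and 9.74 by its other probe set, a difference of the same sign. The other Cycs probe sets above the filter read 10.41 and 10.58, and 9.48 and 9.63. The median in pool 3 was -0.046 over the 35 members read by probe sets with the plain _at ending, -0.21 over the 26 with the _a_at ending, whose probes match several transcripts of 1 gene, -0.25 over the 11 with the _s_at ending, whose probes can match several genes, and -0.12 over the 6 with the _x_at ending, whose probes may also bind unrelated sequences. Over all tested genes the medians for these 4 endings were -0.030, -0.076, -0.048 and -0.019. The actin 3′ to 5′ gap of 1.33 in AFO pool 3 stood beside this, and the part of RNA quality was not tested.

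**Figure D4:**
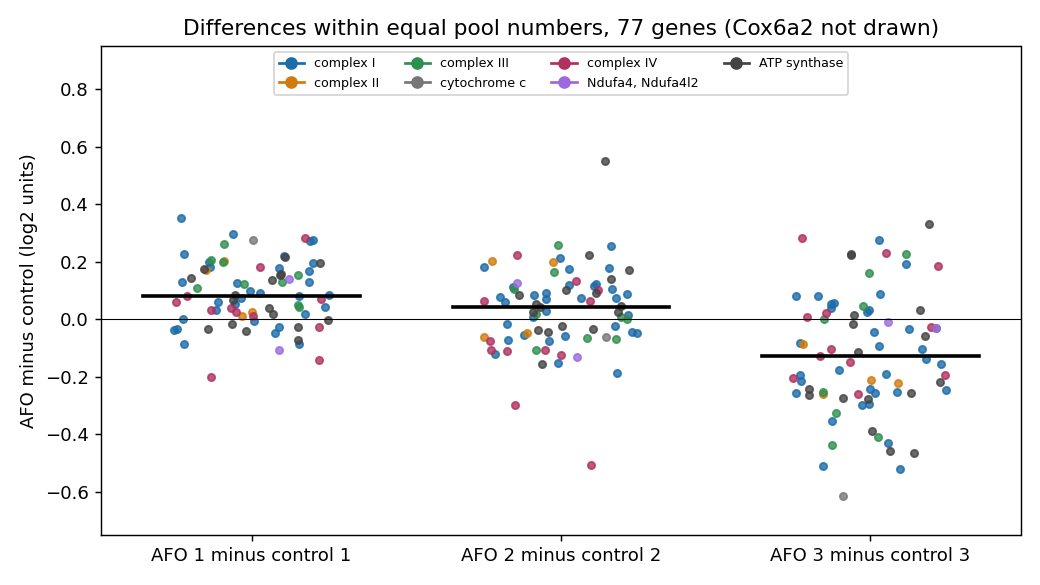
Difference in log2 level (y axis, AFO minus control) of 77 tested subunit genes within pool numbers 1, 2 and 3 (x axis), coloured by complex, with the median as a black bar and Cox6a2 not drawn. The median is 0.081 in pool 1, 0.043 in pool 2 and -0.13 in pool 3. The points run from -0.20 to 0.35 in pool 1, from -0.51 to 0.55 in pool 2 and from -0.61 to 0.33 in pool 3.

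Genes that build, feed and regulate the chain were counted from lists in the same fit, and 0 were called in any list, in either direction. Of the 15 tested complex I assembly genes 7 were higher (median -0.0040), of 9 for complexes II and III 4 (-0.0036), of 18 for complex IV and cytochrome c 9 (-0.0011), and of 4 for assembly and inhibition of ATP synthase 3 (0.043). Lrpprc, which stabilises mitochondrial messenger RNAs, read 7.61, 7.71 and 7.72 in AFO fat and 7.47, 7.58 and 7.31 in control fat, so the groups did not overlap, with a difference of 0.23 (SE 0.13). Of the 12 TCA cycle genes 6 were higher (median 0.013). Suclg1, a subunit of succinyl-CoA ligase, read 10.05, 10.25 and 10.07 in AFO fat and 9.95, 10.05 and 9.83 in control fat, with a difference of 0.18 (SE 0.12). The mitochondrial ribosome had 9 of 18 higher (median -0.0009).

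Of the 13 biogenesis regulators 6 were higher, with a median of -0.030. Esrrg, an orphan nuclear receptor of oxidative genes, read 4.95, 5.37 and 5.62 in AFO fat and 4.34, 5.18 and 4.10 in control fat. The difference was 0.77 (SE 0.32), with a limma unadjusted p of 0.048 and an adjusted p of 0.999999. Its mean was 5.31 in AFO fat and 4.54 in control fat, the latter below the filter on low values. Esrrg thus passed the filter only through its AFO values, so the sign of its difference was fixed in part by the filter. Gabpb1, a partner of GABPA, differed by 0.23 (SE 0.16). The 2 genes with the smallest p in the remaining lists were Ndufaf6 at 0.15 (SE 0.13) and Ecsit at 0.13 (SE 0.12) for complex I assembly, Uqcc3 at -0.26 (SE 0.18) and Sdhaf4 at 0.14 (SE 0.13) for complexes II and III, and Mrpl20 at -0.25 (SE 0.20) and Mrps25 at -0.19 (SE 0.17) for the mitochondrial ribosome. Sco2 differed by 0.18 (SE 0.13), Atpaf1 by 0.11 (SE 0.14), Atpaf2 by -0.10 (SE 0.14) and Mdh2 by -0.12 (SE 0.17). In the TCA cycle 11 of 12 genes had a higher mean in the pool 2 arrays, with a median gap of 0.20. In complex I assembly 4 of 15 did (median gap -0.11), and in the mitochondrial ribosome 10 of 18 (0.011).

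Leaving out both pool 2 arrays raised the number of genes called by limma to 91, or 0.676% of all, with 0 members among them. With AFO pool 3 left out the members' median difference was 0.084, and with AFO pool 2 left out it was -0.080. The median thus changed sign with the array left out, and no member was called in any of the 6 fits that leave out 1 array.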

How the data were processed

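Total RNA from white fat was copied into labelled cRNA by a 3′ in vitro transcription kit and measured on 6 arrays, per the labels' protocols. Values as deposited are log2 levels made by the authors with RMA (background correction, quantile normalisation, probe summary) in Affymetrix Expression Console 1.4, per the submitters' processing notes. Quantile normalisation hides a change shared by most genes, and RMA draws low signals together.

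Of 45101 probe sets, those with 1 symbol were kept if their mean reached 4.88, the 40th percentile, and each gene was read from its highest probe set, giving 13453 genes. The genotypes were compared in limma 3.58.1 (R 4.3.3, empirical Bayes with a trend, unpaired, Benjamini-Hochberg over all tested genes). The fit was tested on simulated data. Groups came from the titles. The members and lists were chosen with earlier results of these data known. Named members are, per complex, the 3 with the smallest p and the steadiest, plus core subunits, isoform pairs, members with an SD of at least 0.5 and non-overlapping members differing by at least 0.3. Members named for their pool values were chosen after these were seen. Of other lists the 2 genes with the smallest p are named. Deviations of equal pool numbers correlated at 0.594, 0.799 and 0.589 across genes, which are not independent replicates, so by the rule (each over 0.1) the numbers pair the arrays. What equal numbers share is not in the labels, and pools 1 and 3 correlated across numbers too (0.441 and 0.362). Alternatives covered filters, scaling, probe set choice, the empirical Bayes setting, array weights, pool number as a block and arrays left out.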

Additional observations from a re-analysis of the deposited data

How the results depend on the processing

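No subunit gene was called by limma under any of the 18 alternatives, where the lowest adjusted p of a member was 0.635. The count of all genes called was 0 in the unpaired fit, 2 with the pool number as a block, 91 without both pool 2 arrays and 270 when these were left out with the block, and it ran from 0 to 27 with 1 array left out, 27 being without AFO pool 2. The block changed no member's call. Members with non-overlapping groups numbered 2, against 1 with quantile normalisation, 0 with median centring, 14 without both pool 2 arrays and 2 to 9 with 1 array left out. Fewer arrays overlap less often by construction: over all tested genes the share was 3.5% with 6 arrays, 6.85% to 17.8% with 1 left out and 29.4% without both pool 2 arrays, where that of the members was 17.9%. The members' median difference ran from -0.080 without AFO pool 2 to 0.084 without AFO pool 3. Of 647 values of 36 named members, 73 had the other sign, and 13 members never did. With quantile normalisation the sign turned for Atp5g2 (0.0076), Cox6b1 (0.0081), Ndufs1 (0.017) and Sdhd (0.0076). With median centring the sign turned for Ndufs1 (0.0076). With probe sets of a gene averaged the sign turned for Atp5a1 (0.052), Cox6b1 (0.0041), Sdhc (-0.034) and Sdhd (0.11). With array weights the sign turned for Atp5a1 (0.048), Cox5b (-0.0091), Cox8a (0.060), Cycs (0.039), Ndufs1 (0.12), Sdhc (-0.022) and Sdhd (0.14). With both pool 2 arrays left out the sign turned for Atp5g1 (-0.15), Cox4i1 (0.0093), Cox5b (-0.046), Cox8a (0.077) and Sdhc (-0.026). With 1 array left out in turn, the difference ran, for members whose sign turned, for Atp5a1 from -0.11 to 0.10, Atp5b from -0.13 to 0.041, Atp5g1 from -0.10 to 0.28, Atp5g2 from -0.15 to 0.16, Cox4i1 from -0.080 to 0.020, Cox5a from -0.0043 to 0.23, Cox5b from -0.10 to 0.12, Cox6b1 from -0.11 to 0.13, Cox6b2 from -0.23 to 0.42, Cox7a2 from -0.15 to 0.024, Cox7a2l from -0.071 to 0.18, Cox8a from -0.13 to 0.020, Cyc1 from -0.33 to 0.11, Cycs from -0.34 to 0.12, Ndufa2 from -0.012 to 0.025, Ndufa4l2 from -0.28 to 0.12, Ndufs1 from -0.14 to 0.14, Ndufv1 from -0.022 to 0.12, Sdha from -0.075 to 0.0055, Sdhb from -0.22 to 0.13, Sdhc from -0.054 to 0.22, Sdhd from -0.14 to 0.054 and Uqcrc1 from -0.013 to 0.22. The block with both pool 2 arrays left out gave the same differences. The cause was not tested. The 3 arrays per genotype limit the precision, and RMA values give no bound for dim genes.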
